A study of Mus musculus with 16 samples.

Results

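Adamts15, Grhl3 and Palmd are 3 genes whose transcripts were strongly lowered by the microtubule drug nocodazole in cultured sensory neurons. They were chosen by name for the size of that decrease, and they are 3 of the 55356 gene identifiers in the deposited table. Transcripts were counted in neurons of the dorsal root ganglion (DRG), taken from embryos of CD1 mice and treated after 6 days in vitro. The medium of every culture held nerve growth factor, and also uridine and fluorodeoxyuridine, which act against dividing cells. The DMSO group (DMSO_DMSO) received the solvent at both steps, and the nocodazole group (DMSO_Noc) received DMSO, then 200 nM nocodazole. The inhibitor group (DLKi_DMSO) received 500 nM of the DLK inhibitor GNE3511 (DLK is dual leucine zipper kinase), then DMSO. The inhibitor plus nocodazole group (DLKi_Noc) received GNE3511, then nocodazole. The first addition came 15 min before the second, which lasted 16 h, and each group had 4 replicates. With 1 inhibitor at 1 dose, an effect through DLK and an effect on another target cannot be told apart.

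Nocodazole binds tubulin and makes microtubules disassemble, and DLK is a kinase that carries a signal of axon or microtubule damage through JNK to the nucleus of a neuron. The 3 genes belong to unrelated families. Adamts15 encodes a secreted zinc protease with thrombospondin repeats that cuts large proteoglycans of the extracellular matrix, such as versican and aggrecan. Grhl3 encodes a grainyhead-like transcription factor, best known for the skin barrier, wound closure and neural tube closure. Palmd encodes palmdelphin, a mostly soluble relative of paralemmin, a membrane-bound protein found in neurons.

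Each library held between 30987962 and 43321421 counts. Levels are given in CPM, the usual unit for counts scaled to library size (here after TMM adjustment). The first principal component of expression put the nocodazole libraries (59.5 to 69.7) apart from the others. Replicate 1 of the inhibitor plus nocodazole group (10.4) lay between them and the other libraries (-41.6 to -9.68). The labelled cell type was checked by its markers. The 11 pan-neuronal markers summed to 6349 to 9957 CPM in every library, while 10 epithelial and keratinocyte markers summed to 0.216 to 1.66 CPM, with Krt5 at 0 throughout. The labels do not say whether the replicates were independent cultures. The p-values therefore measure only how far these samples spread, and that spread may be technical.

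Adamts15 (ENSMUSG00000033453.9) was at 23.8, 24.1, 23.9 and 29.7 CPM in DMSO replicates 1 to 4. After nocodazole it was at 0.524, 0.778, 1.63 and 2.63 CPM. The groups did not overlap, the highest nocodazole library being far under the lowest DMSO library. The genes were chosen for this contrast, so nothing is read from the lack of overlap, here or below. Its share over all genes was not counted. The 4 nocodazole libraries still held 19 to 81 counts of the gene against 766 to 1037 in DMSO, so the transcript was depleted but was detected in every library. With the inhibitor alone the level was 32.0, 10.8, 23.1 and 26.9 CPM. With inhibitor plus nocodazole it was 8.29, 25.4, 23.5 and 22.02 CPM. In those last 2 groups, replicate 2 of the first and replicate 1 of the second stood far under their companions, which overlapped or neared the DMSO range. Group means were 25.4 ± 2.88 CPM in DMSO, 1.39 ± 0.954 after nocodazole, 23.2 ± 9.04 with the inhibitor and 19.8 ± 7.79 with both (SD, n = 4). In bulk RNA, fewer cells that express a gene and less of its RNA per cell cannot be told apart.

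Grhl3 (ENSMUSG00000037188.8) was at 14.4, 15.7, 11.2 and 16.0 CPM in DMSO replicates 1 to 4. After nocodazole it was at 1.32, 1.44, 0.604 and 2.21 CPM, again with no overlap. With the inhibitor alone it was at 10.9, 5.96, 9.49 and 11.9 CPM, and only replicate 4 of that group reached the DMSO range. With inhibitor plus nocodazole it was at 3.27, 9.62, 9.96 and 7.77 CPM. All 4 of these libraries lay under the lowest DMSO library and above the highest nocodazole library. The group means were 14.3 ± 2.21 CPM in DMSO, 1.39 ± 0.658 after nocodazole, 9.54 ± 2.58 with the inhibitor and 7.65 ± 3.08 with both (SD, n = 4). Of the 3 genes, Grhl3 therefore had the lowest group mean with inhibitor plus nocodazole relative to DMSO, at 53.4%, against 78.0% for Adamts15 and 86.6% for Palmd.

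Palmd (ENSMUSG00000033377.15) was at 5.60, 7.85, 7.72 and 7.69 CPM in DMSO. Nocodazole left 0.386, 0.419, 1.24 and 1.14 CPM, and the groups did not overlap. The inhibitor alone gave 10.7, 2.09, 5.86 and 8.28 CPM, a range that held the whole DMSO range. Inhibitor plus nocodazole gave 1.08, 8.68, 7.23 and 7.998 CPM. In that group replicate 1 fell within the range after nocodazole alone, and the other 3 libraries were at or above the DMSO mean of 7.21 CPM. The means were 7.21 ± 1.08 CPM in DMSO, 0.796 ± 0.456 after nocodazole, 6.72 ± 3.66 with the inhibitor and 6.25 ± 3.49 with both (SD, n = 4). Palmd is the member whose counts could be shared with other genes. In the annotation used for names (GENCODE M21), it overlaps 4930455H04Rik on the opposite strand and Gm42892 on its own strand, and 4.23% of its 31-base words occur in transcripts of other genes. The share was 0.126% for Adamts15 and 0% for Grhl3. 4930455H04Rik held 2 counts in DMSO and 0 in the other groups. Gm42892 stayed at or under 0.523 CPM in every library.

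**Figure D1:**
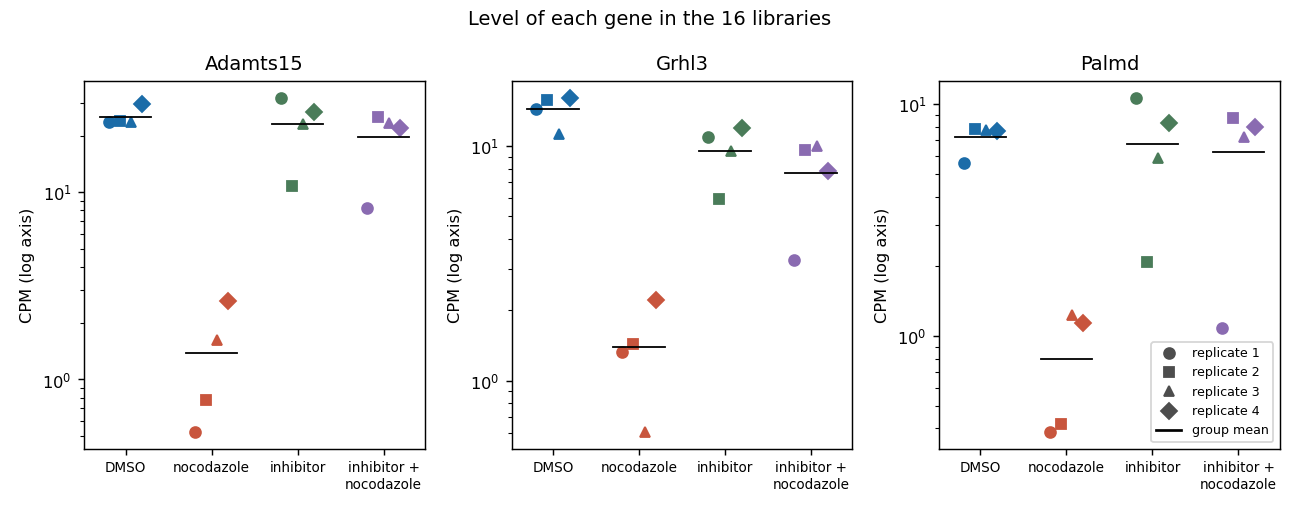
CPM on a log axis for Adamts15, Grhl3 and Palmd in each of the 16 libraries, by group, with the marker giving the replicate number and the line the group mean. For each gene the 4 nocodazole libraries lie under all DMSO libraries, which is the contrast used to choose the genes. The lowest points of the inhibitor groups are replicate 2 (inhibitor) and replicate 1 (inhibitor plus nocodazole).

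Levels of different genes can be compared only per length. Per kilobase of annotated exon, the DMSO level was 5.14 ± 0.791 CPM for Grhl3, 2.45 ± 0.278 for Adamts15 and 0.992 ± 0.148 for Palmd (SD, n = 4), and the ranges of the 3 genes did not overlap. After nocodazole Grhl3 stood at 0.4998 ± 0.236 CPM per kilobase, Adamts15 at 0.134 ± 0.0921 and Palmd at 0.109 ± 0.0627. Here the range of Adamts15 (0.0506 to 0.254) overlapped both that of Palmd (0.0531 to 0.170) and that of Grhl3 (0.217 to 0.793), so only Grhl3 and Palmd stayed apart.

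The decrease after nocodazole alone is what the genes were chosen for, and it is described here without a test. The log2 change, from a model fitted to all 19156 tested genes, was -4.21 ± 0.447 (SE) for Adamts15, an 18.5-fold lower level. It was -3.36 ± 0.359 for Grhl3 (10.3-fold lower) and -3.19 ± 0.59 for Palmd (9.13-fold lower). All 3 had an edgeR adjusted p below 0.05, as did 19% of all tested genes in the lower direction, from which nothing is read, since the rule used this contrast. Among called genes with at least 5 CPM in DMSO, the members ranked 2, 3 and 4 of 2964 decreases. Npy2r, a neuropeptide Y receptor gene at 5.21 CPM in DMSO, ranked above them at -4.41. Just outside came Oprk1, the kappa opioid receptor gene, at -3.14, close to Palmd. With no floor on the level, 12 more weakly expressed genes also stood above Palmd.

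The question the inhibitor groups address is how much of the response to nocodazole remains when DLK is inhibited. The 8 libraries with the inhibitor were not used to choose the genes, so nocodazole with inhibitor against inhibitor alone can be tested. No decrease of the members was detected there. For Adamts15 the log2 difference was -0.24 ± 0.355 (SE), with a 95% interval of -0.99 to 0.51 and an edgeR adjusted p of 0.999. For Grhl3 the change was -0.33 ± 0.312 (edgeR adjusted p = 0.99), interval -0.99 to 0.33. For Palmd it was -0.12 ± 0.497 (edgeR adjusted p = 0.999), interval -1.17 to 0.94. The unadjusted p was 0.515, 0.311 and 0.819 in the same order, and DESeq2 and limma-voom also called none of the 3. An exact two-sided permutation test on log2 CPM gave p = 0.514, 0.486 and 0.714, where the smallest value possible with 4 against 4 is 0.0286. In this contrast 0.0835% of all tested genes were called in either direction, and 0.00522% (1 gene) in the lower direction, so 0 of 3 members is near the background. These counts rest on the libraries used. Over all genes 16 were called, 88 without replicate 1 of the inhibitor plus nocodazole group and 3 without replicate 3 of the inhibitor group.

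The sign of these small differences depended on single libraries. Adamts15 had 0.02 without inhibitor plus nocodazole replicate 1. Palmd had 0.24 without that library, 0.19 without inhibitor replicate 1 and 0.0017 without inhibitor replicate 4. Grhl3 stayed negative with each library left out, from -0.50 to -0.07, and none of these values passed the test.

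The remaining comparisons share libraries with the one that chose the genes and are given as values only. The inhibitor without nocodazole gave log2 changes of -0.13 ± 0.353 for Adamts15, -0.58 ± 0.308 for Grhl3 and -0.10 ± 0.494 for Palmd (SE). Without inhibitor replicate 2, those of Adamts15 and Palmd were 0.11 and 0.20. The inhibitor in the presence of nocodazole gave 3.85 ± 0.446, 2.46 ± 0.358 and 2.98 ± 0.59, that is 14.4-, 5.48- and 7.86-fold higher levels with the inhibitor. The difference between the nocodazole changes with and without inhibitor (the interaction, positive where the decrease was smaller with it) was 3.97 ± 0.569, 3.04 ± 0.472 and 3.08 ± 0.769.

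**Figure D2:**
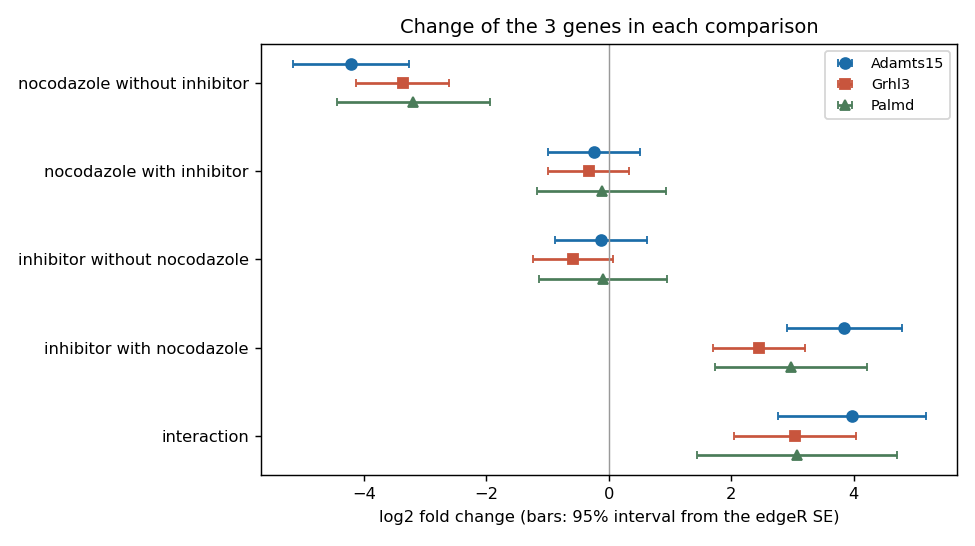
Log2 fold changes of the 3 genes in the 5 comparisons, with 95% intervals from the edgeR standard errors. The 3 intervals for nocodazole with inhibitor include 0, and the changes without inhibitor were used to choose the genes.

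The members did not move alone across replicates. In inhibitor plus nocodazole replicate 1, Adamts15 stood at 35.1%, Grhl3 at 35.8% and Palmd at 13.6% of the mean of the other 3 libraries of the group. In inhibitor replicate 2, which received no nocodazole, they stood at 39.5%, 55.5% and 25.3% of the mean of the other 3. Each of these 2 libraries was the lowest of its group for all 3 members. Without both, a choice made after seeing the data, the log2 change of nocodazole with inhibitor was -0.21 ± 0.244 for Adamts15, -0.24 ± 0.232 for Grhl3 and -0.06 ± 0.278 for Palmd (SE). Atf3, an injury-induced transcription factor gene that nocodazole raised to between 161.6 and 216.1 CPM, was at 5.60 CPM in the first of these libraries and at 2.35 CPM in the second. The other inhibitor plus nocodazole libraries had 2.60 to 3.13 CPM of Atf3.

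Some other measures moved with those libraries, not all of them with both. The mitochondrial share of counts was 1.71% in inhibitor plus nocodazole replicate 1, the highest of its group. It was 1.39% in inhibitor replicate 2, where replicate 3 had 1.78%. The 9 markers of Schwann cells and satellite glia used, of which Sox10, Fabp7, Foxd3 and Cdh19 fell under the filter on low counts, summed to 76.3 CPM in the first library and 125.1 to 139 in the rest of its group. The sum was 88.9 CPM in the second library and 110.5 to 154.4 in the rest of its group. The same sum ran from 152.7 to 176.2 CPM in DMSO and from 88.2 to 135.7 CPM after nocodazole. Pan-neuronal markers summed to 6566 CPM in the first library (8213 to 8380 in the rest of the group) and to 7530 CPM in the second (8059 to 9108 in the rest). They summed to 9122 to 9957 CPM in DMSO and 6349 to 7697 CPM after nocodazole, and Tubb3, a neuronal tubulin gene, accounted for most of that difference (3065 ± 201.7 against 1014 ± 203.1 CPM, SD, n = 4).

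The summed markers of some neuron subtypes, but not of all, moved with the same libraries, not always with both. Peptidergic nociceptor markers summed to 664.1 CPM in the first library (1000 to 1054 in the rest of its group) and to 740.6 CPM in the second (917.5 to 1076 in the rest). They ran from 1006 to 1140 CPM in DMSO and from 654.5 to 931 CPM after nocodazole. Mechanoreceptor and proprioceptor markers summed to 1348 CPM in the first library (1848 to 2081 in the rest). In the second they summed to 1693 CPM, close to replicate 3 of that group at 1687 CPM. The sum of the non-peptidergic nociceptor markers was not low in either library. They summed to 1343 CPM in the first (1268 to 1349 in the rest of its group). In the second they summed to 1319 CPM, above the rest of its group (1207 to 1251). They ran from 1318 to 1451 CPM in DMSO and from 1532 to 1618 CPM after nocodazole. Most of the DMSO sum was Ret and P2rx3, at 783.6 ± 64.1 and 451.8 ± 54.5 CPM (SD, n = 4). Mrgprd, Mrgpra3, Mrgprb4 and Lpar3 fell under the filter on low counts. Of the 6 tested, 2 rose and 3 fell after nocodazole (median -0.36), beside 18.6% and 19% of all genes, so the sum does not stand for each marker.

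Other cell types were at low levels. Macrophage markers, of which Cx3cr1, Ptprc, Adgre1, C1qa, C1qb and Tyrobp fell under the filter, summed to 2.52 to 2.93 CPM in DMSO and 4.34 to 5.86 CPM after nocodazole, with no overlap. Of the 3 tested, Cd68, a lysosomal gene, rose by 2.34 in log2 (edgeR adjusted p = 0.000486). The 9 fibroblast markers summed to 48.9 to 73.6 CPM in DMSO and 48.4 to 79.5 CPM after nocodazole. Most of that sum was Thy1, which neurons also express, at 56.8 ± 9.83 and 47.9 ± 14.4 CPM (SD, n = 4). Of the 8 fibroblast markers tested, 1 was called, Dcn, which encodes the matrix proteoglycan decorin, at 1.62 (edgeR adjusted p = 0.00665), and the median was 0.60. Endothelial markers summed to at most 1.49 CPM in any library. The part of these shifts in the members' levels was not tested.

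The 50 strongest called decreases with at least 5 CPM in DMSO give the setting of the 3 genes. They ran from -4.41 to -1.90 on the log2 scale, with a median of -2.25. In the libraries with the inhibitor, their median log2 change after nocodazole was -0.16, against 0 over all tested genes. The single values ran from -0.67 to 0.29, and 43 of the 50 were negative, where 50.0% of all tested genes were. These values include both low inhibitor libraries and were not computed without them. Relative to DMSO, the median of the other 47 genes was -1.20 in inhibitor plus nocodazole replicate 1. It was -0.11 to 0.0045 in the rest of that group and -0.63 in inhibitor replicate 2. The 50 genes are also not independent of one another. None was called by edgeR, DESeq2 or limma-voom, and none had an unadjusted edgeR p below 0.05. Over all 19156 tested genes these tools called 16, 125 and 17, and 1146 had an unadjusted edgeR p below 0.05. So few calls over all genes leave little to read from none among 50. Of the 50, 8 had a lower value than Grhl3, 14 a lower one than Adamts15 and 32 a lower one than Palmd, so the members lay inside the range of the others. The genes that follow the members in rank are Oprk1, Prag1, A4galt, Mob3b and P2ry1. Prag1 encodes a pseudokinase, A4galt a glycolipid-forming enzyme, Mob3b a MOB-family adaptor and P2ry1 a receptor for ADP. Their log2 changes were -3.14, -2.81, -2.75, -2.74 and -2.69 without the inhibitor and -0.33, -0.17, -0.07, -0.21 and 0.0060 with it.

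**Figure D3:**
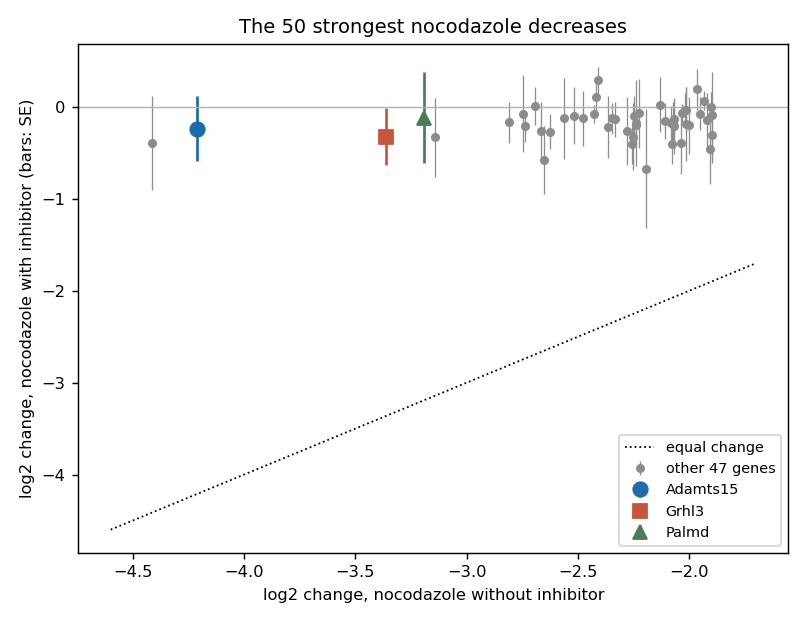
Log2 change of the 50 strongest decreases after nocodazole without inhibitor (horizontal, used for the choice) and with inhibitor (vertical, bars are the SE), with the 3 members marked and a dotted line at equal change. All 50 points lie between -0.67 and 0.29 on the vertical axis.

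The low levels in the 2 libraries named above extended to these genes. Inhibitor plus nocodazole replicate 1 was the lowest of its group for all 47 of the other strongest decreases, against 34.5% of all tested genes. Inhibitor replicate 2 was the lowest of its group for 41 of the 47 (87.2%), against 28.4% of all tested genes. Relative to DMSO, the median of the 47 genes in log2 CPM was -1.20 in the first library and -0.63 in the second. It was between -0.11 and 0.0045 in the other 3 libraries with inhibitor plus nocodazole and between -2.63 and -1.97 after nocodazole alone. These counts were made after the 2 libraries had been seen to be low for the members. Genes that nocodazole lowers also share libraries here, so the 47 are not independent of one another.

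**Figure D4:**
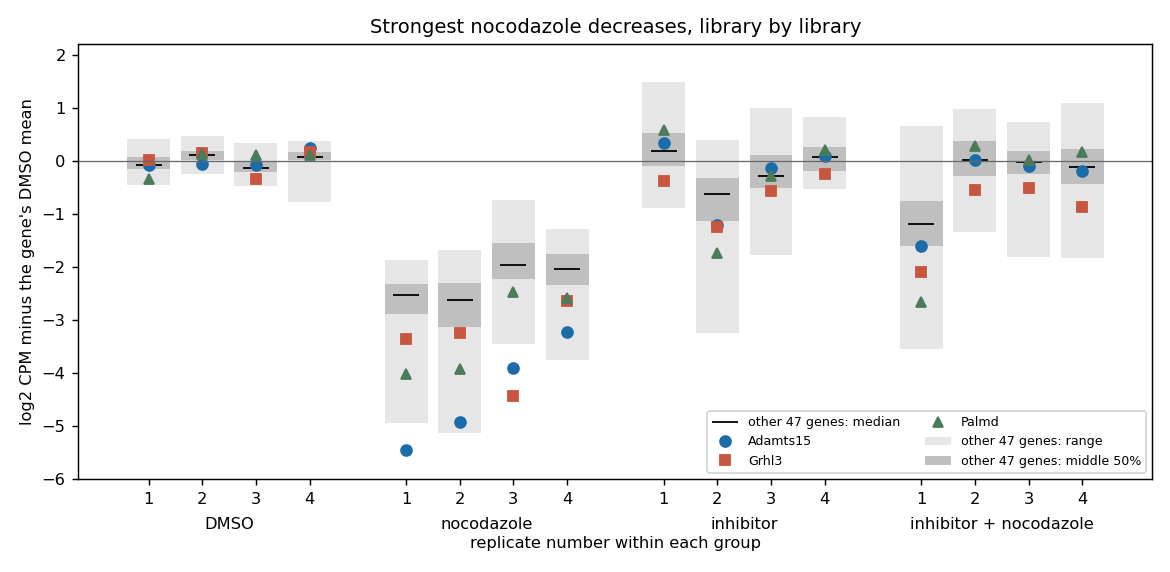
Log2 CPM minus each gene's DMSO mean, library by library, for the 3 members (symbols) and the other 47 strongest decreases (light bar the range, dark bar the middle 50%, line the median). The median of the 47 is -1.20 in inhibitor plus nocodazole replicate 1 and -0.63 in inhibitor replicate 2, and the members lie under it in both.

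The genes whose profile over the 16 libraries was most like each member were found by the root mean square (RMS) difference of centred log2 CPM, among 14396 other genes with a mean of at least 1 CPM. Nearest to Palmd were A4galt at 0.310, Kcnj3 (a G-protein-gated potassium channel gene) at 0.359, Brinp3 at 0.391, Htr1b (a serotonin receptor gene) at 0.424 and Naip1 at 0.434. Nearest to Grhl3 were Prag1 at 0.407, Mob3b at 0.458, Lrfn2 (a synaptic adhesion gene) at 0.496, Gm29100 at 0.525 and Galnt18 at 0.540. For Adamts15 the nearest were Gm29100 at 0.627, Palmd at 0.634, Zfp804b at 0.657, Oprk1 at 0.664 and Htr1b at 0.674. The median RMS difference over all genes was 1.90 for Adamts15, 1.39 for Grhl3 and 1.55 for Palmd. Between members it was 0.634 for Adamts15 and Palmd, 0.706 for Grhl3 and Palmd, and 0.785 for Adamts15 and Grhl3. In the list of each member the other 2 stood at rank 11 (Grhl3) and 2 (Palmd) for Adamts15, 81 (Adamts15) and 36 (Palmd) for Grhl3, and 31 (Adamts15) and 45 (Grhl3) for Palmd. This is a description of shape and size over libraries that share the 4 treatments.

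Of the 5 listed relatives of Grhl3, 3 rose after nocodazole and none fell, where 18.6% of all tested genes rose and 19% fell. Grhl1, a close relative with the same kind of DNA-binding domain, was at 1.87 ± 0.283 CPM in DMSO and 5.86 ± 0.943 after nocodazole (SD, n = 4). The groups did not overlap, with a highest DMSO library of 2.21 CPM and a lowest nocodazole library of 5.09 CPM. Its log2 change was 1.64 ± 0.252 (SE, edgeR adjusted p = 8.99e-05) without the inhibitor and 0.12 ± 0.26 (edgeR adjusted p = 0.999) with it. Grhl2, an epithelial factor, had 3 counts in all 4 DMSO libraries together, of which 3 libraries were at 0, and 78 counts in the 4 nocodazole libraries (edgeR adjusted p = 8.45e-05). The ratio per library size was 28.3, with a 95% exact interval of 9.33 to 140 that covers counting error only. With the inhibitor, the 4 nocodazole libraries held 8 counts of Grhl2 and the others 5. The CP2 factors of the same superfamily moved less. Ubp1 rose by 0.26 (edgeR adjusted p = 0.00605), and Tfcp2 and Tfcp2l1 did not pass, at -0.12 and 0.66. The median log2 change of the 5 was 0.66, against 0.0072 over all genes.

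**Figure D5:**
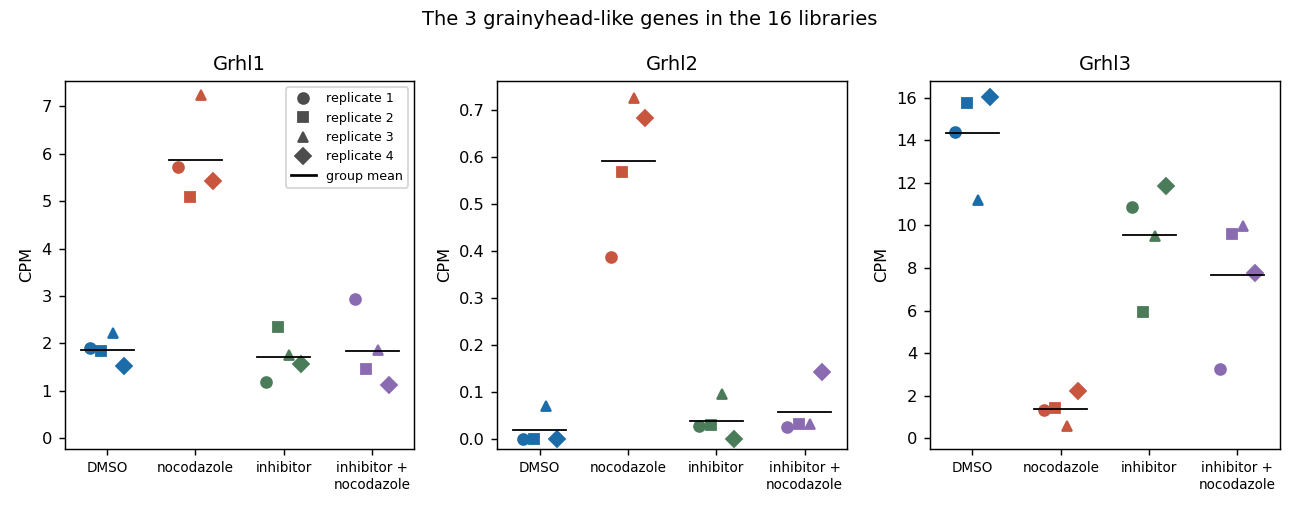
CPM of Grhl1, Grhl2 and Grhl3 in the 16 libraries, by group, each panel on its own linear axis, with the marker giving the replicate number and the line the group mean. In the nocodazole group Grhl1 averages 5.86 and Grhl2 0.591 CPM, above their DMSO means, while Grhl3 averages 1.39 CPM, under its DMSO mean.

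The 2 libraries with low members were also the highest of their groups for Grhl1. It was at 2.93 CPM in inhibitor plus nocodazole replicate 1 and at 2.35 CPM in inhibitor replicate 2, where the group means were 1.85 and 1.72 CPM. The share of all tested genes that were highest in these libraries was not counted, and a link between Grhl1 and the members was not tested.

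Promoter sequences from RefSeq (GRCm38.p6) were at hand for Grhl3, 1 of the 3 members, and for Grhl1 at its 2 annotated starts. They are shown because these genes moved in opposite directions. Each holds the 250 bases before a start, 5′ to 3′ on the gene's strand. The authors' build is GRCm39, so these positions apply to GRCm38.p6 only. Capitals mark matches, on either strand, to a CCAAT box (CCAAT), a GC box (GGGCGG), an E-box (CACCTG) or an ATF4 composite site (TGATGCAA).
Grhl3, chr4:135573633-135573882, minus strand: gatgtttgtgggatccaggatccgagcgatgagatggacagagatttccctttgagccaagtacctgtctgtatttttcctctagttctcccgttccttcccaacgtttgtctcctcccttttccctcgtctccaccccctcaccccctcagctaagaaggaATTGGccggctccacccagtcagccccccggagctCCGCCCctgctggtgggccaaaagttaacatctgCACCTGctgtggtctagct
Grhl1, first start, chr12:24572037-24572286, plus strand: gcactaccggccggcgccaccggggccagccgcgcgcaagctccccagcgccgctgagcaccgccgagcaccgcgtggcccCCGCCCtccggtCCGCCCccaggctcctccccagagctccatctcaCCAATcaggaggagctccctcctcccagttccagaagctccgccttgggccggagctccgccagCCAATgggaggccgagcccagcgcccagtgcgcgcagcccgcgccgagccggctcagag
Grhl1, second start, chr12:24580469-24580718, plus strand: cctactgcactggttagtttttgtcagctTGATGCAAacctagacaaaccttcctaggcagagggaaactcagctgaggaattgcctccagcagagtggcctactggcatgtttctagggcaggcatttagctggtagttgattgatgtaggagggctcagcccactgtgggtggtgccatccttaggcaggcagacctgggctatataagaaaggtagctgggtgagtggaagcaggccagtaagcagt

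The Grhl3 promoter held 1 CCAAT box starting at base -88, 1 GC box at -53 and 1 E-box at -19, counted back from the start. The first Grhl1 promoter held 2 GC boxes, at -169 and -157, and 2 CCAAT boxes, at -123 and -59. The second held an ATF4 composite match at -221. No match overlapped another. Of 32851 promoters of this length, 33.8% held a CCAAT box, 32.7% a GC box, 17.2% the E-box and 0.8% the ATF4 composite. An AP-1 site (TGANTCA, in 6.7% of all), a cyclic AMP response element (TGACGTCA, 1.5%), a grainyhead site (AACCNGTT, 1.8%) and a TATA box (TATAAA, 12.4%) were also searched, and these letters were in none of the 3 windows. The share of G and C was 56.0% for Grhl3, 75.6% and 52.0% for the first and second start of Grhl1, and 52.4% at the median of all promoters.

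Genes linked to grainyhead factors or to epithelia, not all of them targets or markers, were mostly too weakly expressed to test (7 of 19 passed the filter on low counts). Of those 7, 4 rose after nocodazole and none fell (median 0.81), beside 18.6% higher and 19% lower over all genes. Tgm1, the transglutaminase of the skin barrier, rose from 0.225 ± 0.0869 to 0.812 ± 0.249 CPM (n = 4, SD; adjusted p in edgeR = 0.000282). The desmosome genes Dsc2 and Dsp rose, with log2 changes of 1.31 (edgeR adjusted p = 0.00172) and 1.15 (0.0256). Their DMSO means were low, at 1.11 and 0.155 CPM. Lmo4, which encodes a LIM-domain partner of transcription factors, rose from 33.6 ± 1.61 to 59.1 ± 1.63 CPM (n = 4, SD; adjusted p in edgeR = 1.15e-07). The epithelial marker sum given above was 0.461 to 0.558 CPM in DMSO and 1.05 to 1.66 CPM after nocodazole, and it includes Grhl2.

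Of 20 relatives of Adamts15 tested, 4 rose and 4 fell after nocodazole, with a median of -0.03. These 8 of 20 are near the 37.5% called over all genes. Adamts1, another proteoglycan-cutting protease, rose from 1.12 ± 0.389 to 5.17 ± 1.43 CPM (SD, n = 4). Its log2 change was 2.19 ± 0.237 (SE, edgeR adjusted p = 3.1e-06). Adamts16 rose from a very low level, 0.0621 ± 0.0408 CPM, to 0.466 ± 0.0976 CPM (n = 4, SD; adjusted p in edgeR = 0.000269). Adamts5, the main aggrecan-cutting protease of cartilage, fell from 1.66 ± 0.583 to 0.526 ± 0.305 CPM (n = 4, SD; adjusted p in edgeR = 0.00218). Adamts12 fell too, its log2 change being -1.20 (edgeR adjusted p = 0.0457). In DMSO the 23 other family genes together summed to 68.2 to 73.8 CPM, and after nocodazole to 59.3 to 72.0 CPM.

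Among genes for the substrates, partners and inhibitors of these proteases, 4 of 16 tested rose and 4 fell (median -0.21), beside 18.6% and 19% of all genes. Has3, a hyaluronan synthase gene, fell by 1.20 (edgeR adjusted p = 0.000324), and Ptprz1, a receptor phosphatase that carries chondroitin sulphate, by 0.95 (edgeR adjusted p = 2.98e-07). Hapln4, which encodes a link protein of the matrix around neurons, rose by 1.08 (edgeR adjusted p = 0.00256), and Pcsk5, a proprotein convertase gene, by 0.95 (edgeR adjusted p = 0.0463). Versican itself (Vcan) did not pass, at -0.58 ± 0.369 (edgeR adjusted p = 0.234), and aggrecan (Acan) was too weakly expressed to test. Ncan, a proteoglycan gene of the same list, fell from 158.4 ± 14.85 to 117.8 ± 4.49 CPM (SD, n = 4). Its log2 change was -0.43 (edgeR adjusted p = 0.000249). The paralemmin family list held 5 tested genes besides Palmd, Pakap and Akap2 among them, not all of them paralemmins. Of these 5, 2 fell and none rose (median -0.16), beside 19% lower and 18.6% higher over all genes. Palm, the founding member, fell from 436.5 ± 30.1 to 347.8 ± 15.1 CPM (n = 4, SD; adjusted p in edgeR = 0.000385). Palm2 fell from 57.6 ± 2.71 to 41.4 ± 2.39 CPM (n = 4, SD; adjusted p in edgeR = 0.00172). These changes of -0.33 and -0.48 on the log2 scale compare with -3.19 for Palmd.

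With the inhibitor, edgeR called none of the 53 tested genes of these 5 lists after nocodazole, and 5 had an unadjusted p below 0.05. Over all 19156 tested genes these counts were 16 and 1146. DESeq2 called 1 of the 53, Palm3, at 0.30 (DESeq2 adjusted p = 0.031), and 125 of all genes. Limma-voom called none of the 53 and 17 of all genes.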

How the data were processed

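For the 16 libraries, the authors deposited raw counts in 1 table, with a row for each Ensembl identifier. RNA came from a ReliaPrep kit and libraries from Kapa RiboErase, per the labels' protocols. Per the submitters' processing notes, STAR, Salmon and GRCm39 were used, with no versions. Which tool made the counts, the strand setting and the handling of shared reads are not given in the sources used here. Symbols from GENCODE M21 matched 94.1% of identifiers. The members and gene lists were chosen with earlier results of these data known.

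edgeR 4.0.16 in R 4.3.3 (TMM scaling, default filterByExpr, quasi-likelihood test, 1 mean per group, no replicate block) was fitted to all 16 libraries. Benjamini-Hochberg adjusted p-values cover all 19156 genes, and a gene was called below 0.05. Intervals are 95%. Log2 CPM used a prior count of 2. Named genes are the members, the next 5 decreases, the 5 most similar profiles, up to 4 called genes per list (largest log2 change) and close relatives of the members. Npy2r, Atf3, Vcan, Acan, Ncan, Palm3, Tubb3, Cd68, Thy1, Dcn, Ret, P2rx3, Pakap and Akap2 were named after their values were seen. One glial marker is not reported here. Alternatives were DESeq2 1.42.0, limma-voom 3.58.1, other scaling and filters, a replicate block, the contrast's 8 libraries alone and each library left out. On simulated counts for nocodazole with inhibitor (18810 genes), 67% of 100 genes changed by 1 in log2 and 48% of 100 changed by 0.5 were recovered, with 9 false calls. The changed genes were drawn at random, with noise independent between genes. The members' SE in this contrast (0.355, 0.312 and 0.497) exceeded the all-gene median of 0.144, so these shares do not measure their recovery. No replicate was a copy of another (chi-square per degree of freedom 8.28 to 51.3).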

Additional observations from a re-analysis of the deposited data

Results flagged for a closer look

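In the DMSO group, Adamts15 in replicate 4 (29.7 CPM) stood apart above the other 3 libraries, and Palmd in replicate 1 (5.60 CPM) stood apart below them. Each gap was over 0.829 of the group's range. Chance gives such a gap in about 1 of 20 groups, and 12 groups were examined.

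Of the 17 genes named from the lists for the size of their change, 7 had an adjusted p below 0.05 in the interaction of edgeR (nocodazole change with inhibitor minus that without), which called 18.7% of all tested genes. The 17 were chosen for a large change without inhibitor, which is part of the interaction, so these values are a description and support no difference. They were -1.60 for Adamts1, -1.52 for Grhl1, -1.84 for Tgm1 and -0.58 for Lmo4, which rose without the inhibitor. They were 0.97 for Has3, 0.82 for Ptprz1 and 0.33 for Palm, which fell without it.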

How the results depend on the processing

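For the members in nocodazole with inhibitor, no alternative gave a call: adjusted or exact p ran from 0.514 to 1 for Adamts15, 0.486 to 1 for Grhl3 and 0.714 to 1 for Palmd. With each library left out in turn, the log2 change ran from -0.47 to 0.023 for Adamts15, -0.50 to -0.07 for Grhl3 and -0.41 to 0.24 for Palmd. With the replicate block it was -0.25, -0.34 and -0.21 in that order. The replicate numbers did not pair the libraries consistently. Same-numbered correlations between the inhibitor groups were -0.399, -0.115, -0.191 and 0.165. Between the other pairs of groups they ran from -0.215 to 0.232. Some libraries correlated best with their own number, but not every library did. The count of all genes called in that comparison, 16, was unstable. It was 28 without a filter, 5 with the replicate block, 6 with only the 8 libraries of the contrast, 125 in DESeq2, 39 without both low inhibitor libraries (added after seeing the data), and 3 to 88 with 1 library left out, moving over 1.5 times for every library except nocodazole replicate 3. The cause was not tested. In the other 4 comparisons, each member moved by less than 1 SD between replicates under every alternative run, the sign changes for the inhibitor alone included, and nocodazole without inhibitor ran from -4.72 to -2.95 over the 3 genes with 1 library left out. Of the 5 most similar genes, a ranking over group means shared 3 for Adamts15, 0 for Grhl3 and 1 for Palmd. With a floor of 1 CPM, 24 of the 50 strongest decreases were shared, and again none was called with the inhibitor. The SE depended on which libraries shared the estimate of the spread. For Palmd in nocodazole without inhibitor it was 0.59 over all 16 libraries, 0.325 with only the 8 of the contrast and 0.296 without both low inhibitor libraries.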
